A study of Homo sapiens with 18 samples.

Results

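AP-1 is a transcription factor made of pairs of basic leucine zipper proteins, most often 1 from the FOS family and 1 from the JUN family. The 9 genes described here are the FOS family (FOS, FOSB, FOSL1, FOSL2), the JUN family (JUN, JUNB, JUND), EGR1, a zinc finger transcription factor, and IER2, a small nuclear protein. They were chosen by name, as members of these families or as immediate early factors commonly induced beside them, and make up 9 of the 35579 genes to which the deposited transcripts were assigned. All 9 passed the filter on low counts, which left 13527 genes tested.

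Immediate early genes are genes whose mRNA rises within minutes of a growth factor, serum or stress signal, without new protein being made first. ERK and other MAP kinases act on SRF with its ELK partners at CArG boxes, and on CREB-type factors at cyclic AMP response elements, in front of genes such as FOS and EGR1. FOS, FOSB, EGR1 and IER2 mRNAs are short-lived, whereas FOSL1, FOSL2 and JUND are expressed more steadily in growing fibroblasts, where AP-1 drives genes of matrix proteases.

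Poly(A) RNA was sequenced from hiF-T cells, fibroblast-like cells derived from BJ human skin fibroblasts with inducible hTERT, the catalytic subunit of telomerase. The groups were CDKN1A knockdown (guides 1 and 2, 4 libraries), KDM1A knockdown (guides 2 and 3, 4 libraries), SPP1 knockdown (guides 1, 2 and 3, 6 libraries) and a control guide, titled backbone (guides 1 and 2, 4 libraries). CDKN1A encodes the CDK inhibitor p21, KDM1A the histone demethylase LSD1 and SPP1 osteopontin. Each guide has biological replicates 1 and 2, the labels give genotype WT for the control libraries, and neither the way the guides lower the mRNA nor the state of the hTERT inducer, serum or time of harvest is given in the sources used here. Nothing says that replicates came from separate transductions, so the p-values measure the spread between these libraries, which may be partly technical.

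Library totals were 11.91 to 17.02 in units of 1e6 estimated counts. The targeted mRNA was at 58.2% of control in the CDKN1A knockdown (adjusted p 0.00394), 52.9% in the KDM1A knockdown (adjusted p 7.27e-06) and 61.4% in the SPP1 knockdown, which did not pass (adjusted p 0.0695). The 10 fibroblast markers summed to 27700 to 34700 CPM per library, whereas the melanocyte, endothelial and leukocyte markers summed to at most 2.43 CPM each and keratinocyte markers to 52.2 to 69.2 CPM. CPM is counts per 1e6 counts of a library, scaled by edgeR's TMM, and TPM, which also corrects for transcript length, is used for levels and shares of genes within a family and was not tested. Calls rest on an adjusted p below 0.05 in edgeR's quasi-likelihood test with Benjamini-Hochberg adjustment over all 13527 genes, and all adjusted p-values below are from that test. Since the cells were sequenced in bulk, fewer expressing cells and less RNA per cell cannot be told apart.

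The promoters of FOS and FOSB, the pair of genes that varied most between guides, and of EGR1, which was lowest in SPP1 knockdown and KDM1A guide 3 libraries, are shown first. All 3 hold the core of a cyclic AMP response element, and EGR1 alone of the 3 also holds CArG boxes in the bases searched. Each is the reference sequence of the plus strand from RefSeq (GRCh38.p14), 5′ to 3′, up to the base before the transcript start, or for FOS up to the base before the annotated gene start, which lies upstream of the RefSeq start. Capitals mark CArG boxes, the binding sequence of SRF, and the letters TGACGT, the core of a cyclic AMP response element, on either strand, where TGACGT reads ACGTCA in reverse. They lie at chr14:75278578-75278773 for FOS, chr19:45467746-45467994 for FOSB and chr5:138465229-138465478 for EGR1.
FOS: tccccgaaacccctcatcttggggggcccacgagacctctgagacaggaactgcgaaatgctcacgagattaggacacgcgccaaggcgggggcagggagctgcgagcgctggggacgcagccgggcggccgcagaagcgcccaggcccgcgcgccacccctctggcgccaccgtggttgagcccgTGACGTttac
FOSB: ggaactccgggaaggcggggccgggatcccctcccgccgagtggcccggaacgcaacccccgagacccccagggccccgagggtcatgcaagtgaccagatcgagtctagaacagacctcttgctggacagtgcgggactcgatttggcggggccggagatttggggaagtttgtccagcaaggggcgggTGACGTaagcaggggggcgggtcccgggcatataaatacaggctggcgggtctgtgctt
EGR1: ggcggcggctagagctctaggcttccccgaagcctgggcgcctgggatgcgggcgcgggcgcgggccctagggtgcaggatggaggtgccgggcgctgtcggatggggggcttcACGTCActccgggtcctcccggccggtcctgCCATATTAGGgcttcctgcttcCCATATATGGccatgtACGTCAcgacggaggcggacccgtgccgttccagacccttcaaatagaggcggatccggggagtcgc

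RefSeq promoters were matched for 8 of the 9 genes, and 250 bases before each start were searched on both strands for 5 motifs. A CArG box was found in EGR1 alone of the 8, with matches 105 and 83 bases before the start, and in 1.16% of all 35116 promoters. Bases further upstream were not searched, so a CArG box there would be missed. TGACGT lay 64 bases before the start in FOS, 60 in FOSB and 66 in FOSL2, at 2 places in EGR1 and 3 in JUND, and in 7.1% of all promoters. TATAAA was found 33, 30 and 31 bases before the start of FOS, FOSB and JUNB, and in 10.7% of all promoters. GGGCGG was found in FOS, FOSB, FOSL2, JUN, JUND and IER2, and in 42.6% of all promoters. TGACTCA, the AP-1 site itself, was found in none of the 8 windows and in 4.2% of all promoters. The matches overlap only in JUND, between TGACGT on the 2 strands. They describe letters in these windows and say nothing of binding in these cells.

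In every library the FOS family transcripts were mostly FOSL1, and FOS and FOSB were minor members. In control libraries FOSL1 (chromosome 11, 65892049 to 65900573, GRCh38) averaged 460 ± 22.3 TPM (SD, n = 4), above 97.8% of tested genes. FOSL2 averaged 63.2 ± 8.21 TPM, FOS 22.6 ± 15.7 TPM and FOSB 9.33 ± 6.71 TPM. The wide SD of FOS and FOSB lay between the 2 control guides, which differed in these genes and hardly in FOSL1.

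FOSL1 held 79.0 to 87.6% of the summed TPM of the family over all 18 libraries, and FOSL2 10.6 to 13.1%. FOS held 1.32 to 1.57% in CDKN1A knockdown, 1.01 to 1.39% in KDM1A knockdown, 1.75 to 2.60% in SPP1 knockdown and 1.64 to 6.34% in control libraries. FOSB held at most 0.608%, 0.522%, 1.28% and 2.68% in the same order of groups. The family sum averaged 513 ± 31.2 TPM in CDKN1A knockdown (n = 4), 576 ± 27.9 in KDM1A knockdown (n = 4), 509 ± 41.9 in SPP1 knockdown (n = 6) and 555 ± 38.0 TPM in control libraries (n = 4), and these ranges overlapped.

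**Figure D1:**
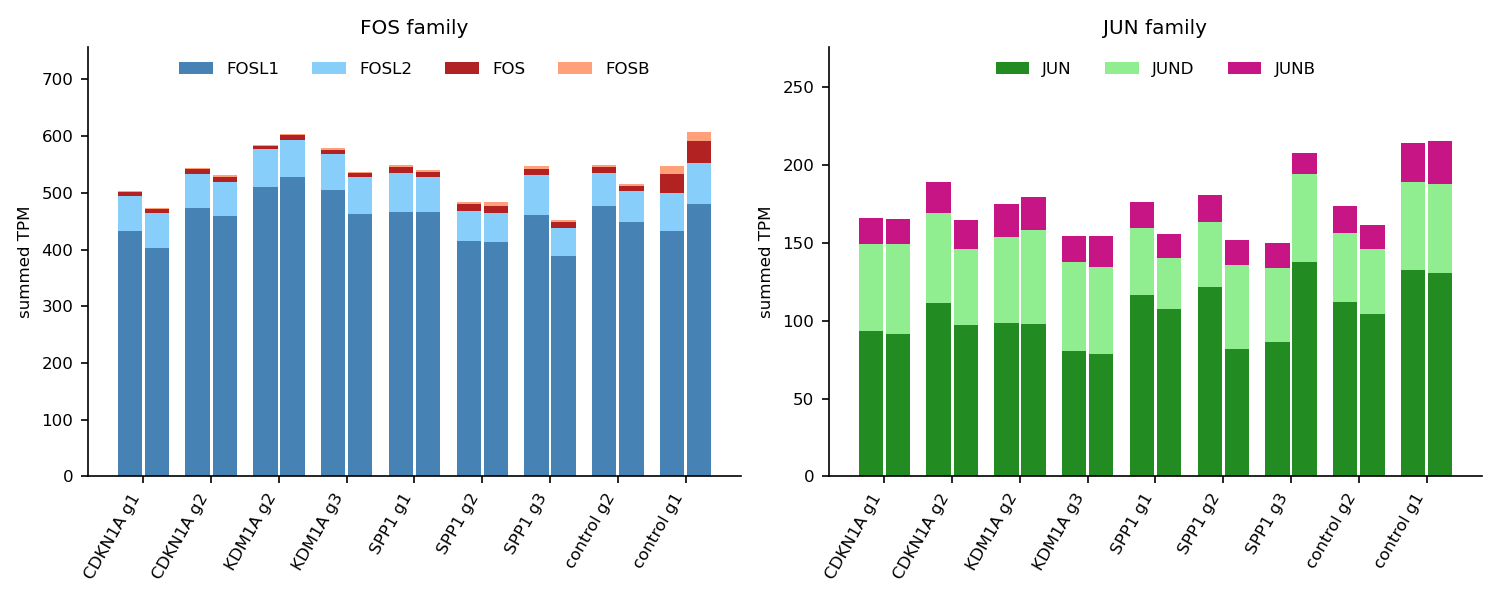
Summed TPM of the FOS family (left) and JUN family (right), with 1 bar per library, 2 bars per guide (g) and colours for each gene. FOSL1 holds 79.0 to 87.6% of the FOS family in every library, and the FOS and FOSB blocks are tallest in the 2 control guide 1 libraries.

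In the JUN family, JUN was the highest member in every library, with 51.1 to 68.9% of the family's TPM. In control libraries JUN averaged 120 ± 13.9 TPM, JUND 49.7 ± 8.26 TPM and JUNB 21.7 ± 5.68 TPM (n = 4). JUN's share was 55.4 to 59.1% in CDKN1A knockdown and 51.1 to 56.2% in KDM1A knockdown, against 60.6 to 64.5% in control, and in SPP1 knockdown it was 54.1 to 68.9%. JUND's share was 29.6 to 35.0% in CDKN1A knockdown and 31.4 to 37.1% in KDM1A knockdown, against 25.3 to 26.6% in control. JUN shares were thus lower, and JUND shares higher, in each library of these 2 knockdowns than in each control library, although neither gene was called at the level of its own mRNA. Shares of 1 sum are tied, so these are not 2 separate results. JUND's own level overlapped control, with 48.8 to 57.7 TPM in CDKN1A and 55.0 to 59.7 TPM in KDM1A knockdown against 41.4 to 57.4 TPM. IER2 averaged 107 ± 11.3 TPM and EGR1 47.4 ± 7.69 TPM in control libraries. The order of levels in control was FOSL1, JUN, IER2, FOSL2, JUND, EGR1, FOS, JUNB and FOSB, where JUN and IER2, FOSL2 with JUND and EGR1, and FOS with JUNB and FOSB overlapped within their spread.

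FOSB and FOS varied most between guides, FOSL1 and FOSL2 least, and the other 5 genes lay between. On the log2 CPM scale, the difference between the highest and lowest of the 9 guide means was 3.43 for FOSB and 2.34 for FOS, against 0.29 to 0.90 for the other genes and a median of 0.42 over all tested genes. Both were highest with control guide 1 and lowest with KDM1A guide 2. FOSL2 (0.29) and FOSL1 (0.35) were the steadiest, below the median of all genes but above 56.5% and 64.5% of genes of like level, whereas EGR1 (0.90), JUN, IER2, JUND and JUNB lay above it. The SD between the 2 libraries of a guide was 0.13 for FOS and 0.49 for FOSB on the same scale, so FOSB, with as few as 29.4 counts in a library, was the less precise of the 2. In all, 7 of the 9 genes had their highest guide mean in control guide 1, as did 7 of the 29 other immediate early genes tested and 12.4% of all tested genes. For EGR1 and JUND the lead was small. EGR1 averaged 100.1 CPM there and 99.7 CPM with CDKN1A guide 1, and JUND 62.7 CPM there and 61.8 CPM with KDM1A guide 2.

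**Figure D2:**
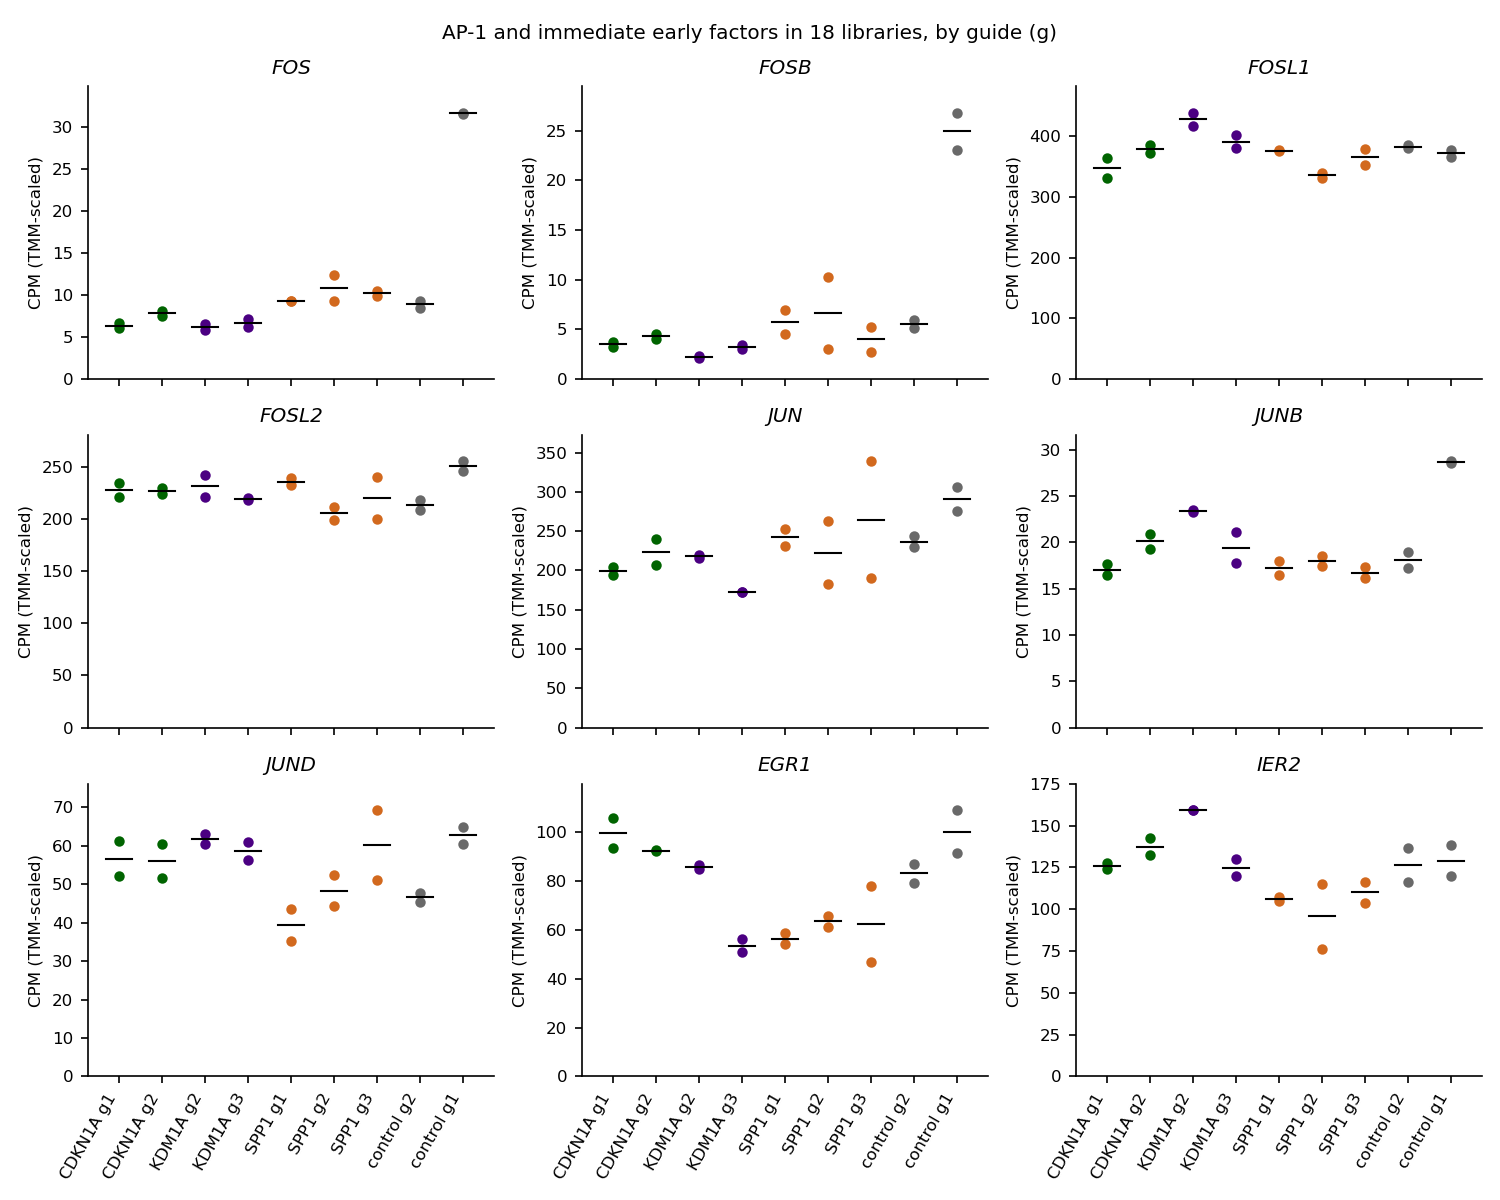
CPM of the 9 genes in each of the 18 libraries (points), with guide means (lines), for the CDKN1A, KDM1A and SPP1 knockdowns and the control guides. FOS, FOSB and JUNB are highest in the control guide 1 libraries at the right, whereas FOSL1 and FOSL2 stay level, and EGR1 is lowest in KDM1A guide 3 and the SPP1 libraries.

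FOS (chromosome 14, 75278774 to 75282230) differed more between the 2 control guides than between any knockdown and control guide 2. The control guide 2 libraries had 9.32 and 8.47 CPM, and the control guide 1 libraries 31.7 and 31.8 CPM. CDKN1A guide 1 gave 6.63 and 6.095 CPM and guide 2 8.115 and 7.53 CPM, KDM1A guide 2 6.49 and 5.80 CPM and guide 3 7.13 and 6.22 CPM. In SPP1 knockdown the lowest of 6 libraries had 9.265, the median was 9.60 and the highest 12.4 CPM. All CDKN1A and KDM1A knockdown libraries thus lay below all 4 control libraries, and the 6 SPP1 knockdown libraries lay below control guide 1 but overlapped control guide 2.

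Relative to all control libraries, FOS fell in each knockdown. The log2 fold change was -1.52 ± 0.32 (SE) in CDKN1A knockdown (adjusted p 0.0209), -1.67 ± 0.32 in KDM1A knockdown (adjusted p 0.00241) and -1.01 ± 0.28 in SPP1 knockdown (adjusted p 0.0396). Without the control guide 1 libraries these were -0.33 (adjusted p 0.38), -0.48 (adjusted p 0.0893) and 0.18 (adjusted p 0.611). The fall of FOS in the SPP1 knockdown therefore changed direction without control guide 1, and no FOS call held in this fit by group without those libraries. In the fit with 1 coefficient per guide, which keeps them for the estimate of spread, FOS was called in KDM1A knockdown against control guide 2 alone (adjusted p 0.0225).

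FOSB (chromosome 19, 45467995 to 45475179), a FOS paralog that pairs with the same JUN partners, followed FOS at a lower level. The control guide 2 libraries had 5.15 and 5.90 CPM, and the control guide 1 libraries 23.1 and 26.8 CPM. CDKN1A knockdown gave 3.725 and 3.24 CPM with guide 1 and 4.02 and 4.56 CPM with guide 2, and KDM1A knockdown 2.30 and 2.06 CPM with guide 2 and 3.05 and 3.39 CPM with guide 3. SPP1 knockdown ranged over 2.75 to 10.3 CPM with a median of 4.90 CPM, and its libraries of 1 guide differed widely, as in guide 2 with 2.975 and 10.3 CPM. FOSB in CDKN1A and KDM1A knockdown did not overlap control, and in SPP1 knockdown it overlapped control guide 2. The deposited counts of FOSB were divided among 13 transcripts, and that division moved between libraries of a guide (FOSB-201 had 191.4 estimated counts in 1 control guide 1 library and 0 in the other), so only its gene sums are used.

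Relative to all control libraries, the FOSB log2 fold change was -1.98 ± 0.46 in CDKN1A knockdown (adjusted p 0.0325), -2.49 ± 0.48 in KDM1A knockdown (adjusted p 0.00221) and -1.48 ± 0.39 in SPP1 knockdown (adjusted p 0.0334). Without control guide 1 these became -0.51 (adjusted p 0.658), -1.03 (adjusted p 0.201) and -0.02 (adjusted p 0.991), none called. The FOS and FOSB calls in the KDM1A knockdown held when any 1 library was left out (highest adjusted p 0.0131 and 0.0118 over 18 fits), which keeps every guide in, and ended with the 2 libraries of a guide summed (adjusted p 0.101 and 0.0705).
The CDKN1A calls did not: 5 of the 18 such fits called neither FOS nor FOSB, those without either control guide 1 library, either CDKN1A guide 1 library or CDKN1A guide 2 replicate 2, and without CDKN1A guide 2 replicate 1 FOS alone was called. In the SPP1 knockdown FOS was called in 10 of the 18 fits and FOSB in 12. Neither was called without either control guide 1 library, FOS ended without any 1 of the 6 SPP1 libraries, and FOSB ended without SPP1 guide 1 replicate 2, guide 2 replicate 1, or guide 3 replicate 1 or 2. For the CDKN1A knockdown the adjusted p ranged over 0.00388 to 0.0779 for FOS and 0.0169 to 0.108 for FOSB.

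FOS and FOSB levels were related also among the 16 libraries without control guide 1 (Pearson r 0.68 on log2 CPM, given as a description). The control guide 1 libraries stand apart as a cluster of their own, so no r over all 18 is given.

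Set against each other in a fit with 1 coefficient per guide, control guide 2 was lower than control guide 1 in 3 of the 9 genes, where 1.34% of all genes were called. FOS was at 28.1% of its control guide 1 level (log2 -1.83 ± 0.13, adjusted p 4.67e-06), FOSB at 22.1% (log2 -2.18 ± 0.36, adjusted p 0.00779) and JUNB at 63.3% (log2 -0.66 ± 0.09, adjusted p 0.00297). JUND (log2 -0.43 ± 0.14) and FOSL2 (log2 -0.23 ± 0.07) did not pass (adjusted p 0.153 for each). The median log2 fold change of the 9 genes was -0.30, against -0.01 over all genes, and 8 of 9 values were negative. Which guide is nearer to cells without a guide cannot be told from these libraries.

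FOS passed in each of the 4 fits that left out 1 control library (adjusted p 6.51e-05 to 0.000273). FOSB passed in 1 of them, the fit without guide 1 replicate 1, and was not called without guide 1 replicate 2 (adjusted p 0.0593) or without guide 2 replicate 1 or 2 (0.103 and 0.113). JUNB was not called without guide 2 replicate 2 (adjusted p 0.0861).

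Genes beyond the 9 also separated the control guides. PTGS2, which encodes the inducible cyclooxygenase COX-2, had 66.4 and 66.6 CPM with control guide 2 and 118 and 126 CPM with control guide 1 (log2 -0.88 ± 0.08, adjusted p 3.48e-05). SRF, the factor that binds CArG boxes, had 77.4 and 75.1 CPM with control guide 2 and 98.2 and 98.9 CPM with control guide 1 (log2 -0.37 ± 0.065, adjusted p 0.012), and neither gene's guides overlapped. Of 12 tested heat shock and handling genes, 1 was higher with control guide 2 and none was lower, where 1.34% of all genes were called. The 1 was the chaperone HSP90AA1 (log2 0.315 ± 0.05, adjusted p 0.00635). The summed level of the listed heat shock and handling genes was 6100 to 6850 CPM in the 4 control libraries, with HSPA1A listed at 0 in all libraries. The part of handling in the FOS, FOSB and JUNB differences was not tested.

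JUNB (chromosome 19, 12791496 to 12793315), a JUN family member that is a weaker activator than JUN, was, like FOS, highest with control guide 1. SPP1 knockdown libraries ranged over 16.2 to 18.5 CPM with a median of 17.4 CPM. CDKN1A knockdown gave 17.7, 16.5, 21.0 and 19.3 CPM and KDM1A knockdown 23.3, 23.5, 17.7 and 21.1 CPM. Control guide 2 gave 19.0 and 17.2 CPM and control guide 1 28.8 and 28.6 CPM. All 14 knockdown libraries lay below control guide 1, and the knockdowns overlapped control guide 2. JUNB passed in the SPP1 knockdown (log2 -0.43 ± 0.13, adjusted p 0.0486) and not in the CDKN1A (log2 -0.33 ± 0.14) or KDM1A knockdown (log2 -0.13 ± 0.14). Without control guide 1 the 3 values were 0.03 in CDKN1A, 0.24 in KDM1A and -0.07 in SPP1 knockdown, none called. The SPP1 call stood in 3 of the 18 fits that left out 1 library, those without control guide 2 replicate 1 or 2 or KDM1A guide 3 replicate 1 (adjusted p 0.0141 to 0.222 over the 18). JUNB shares 259 exon bases with HOOK2 on the opposite strand, and since no strand setting of the counting is stated, reads there cannot be told apart.

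JUN (chromosome 1, 58780788 to 58784327), the strongest activator of its family, was lower in KDM1A knockdown than in all control libraries, without passing the test. KDM1A guide 2 gave 216 and 220 CPM and guide 3 173 and 173 CPM, against 244 and 229 CPM with control guide 2 and 306 and 276 CPM with control guide 1. The groups did not overlap, but the log2 fold change of -0.43 ± 0.15 had an adjusted p of 0.0768. JUN was called there by DESeq2 (adjusted p 0.0403), without the filter on low counts (0.0455), with the 2 groups alone (0.0278) and with 1 coefficient per guide (0.0436), and not without control guide 1 (0.532). CDKN1A knockdown gave 194.5 to 239.5 CPM, with 3 of 4 libraries below all controls (log2 -0.32 ± 0.15). SPP1 knockdown ranged over 183 to 339 CPM with a median of 242 CPM, and its highest library, guide 3 replicate 2, exceeded every control while replicate 1 of the same guide had 190 CPM.

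JUND (chromosome 19, 18279760 to 18281622), the JUN member known for steady expression in resting cells, passed in no knockdown against all control libraries. It had 51.7 to 61.1 CPM in CDKN1A knockdown, 56.2 to 63.1 CPM in KDM1A knockdown and 35.3 to 69.2 CPM in SPP1 knockdown, against 47.7 and 45.4 CPM with control guide 2 and 64.8 and 60.5 CPM with control guide 1. All groups overlapped control. In SPP1 knockdown the guides ranged widely, with 43.6 and 35.3 CPM for guide 1, 44.3 and 52.4 CPM for guide 2 and 50.9 and 69.2 CPM for guide 3.

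FOSL1 and FOSL2, the AP-1 members that lack the strong activation domain of FOS, showed no call against control. FOSL1 had 332 to 386 CPM in CDKN1A, 380 to 439 CPM in KDM1A and 332 to 380 CPM in SPP1 knockdown, against 366 to 385 CPM in control libraries. The log2 fold changes were -0.05 ± 0.06, 0.12 ± 0.06 and -0.07 ± 0.05 in the same order. FOSL2 had 221 to 235, 219 to 242 and 199 to 240 CPM, against 208 to 255 CPM in control, with log2 fold changes of -0.03 ± 0.07, -0.04 ± 0.07 and -0.07 ± 0.065.

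EGR1 (chromosome 5, 138465490 to 138469315), which FOS-inducing signals also induce, did not follow FOS. SPP1 knockdown libraries ranged over 46.9 to 77.8 CPM with a median of 59.9 CPM. KDM1A guide 2 gave 84.8 and 86.7 CPM and guide 3 56.1 and 51.0 CPM, and CDKN1A knockdown 106, 93.6, 92.1 and 92.7 CPM. Control guide 2 gave 87.1 and 79.1 CPM and control guide 1 91.2 and 109 CPM. All 6 SPP1 knockdown libraries lay below all 4 control libraries, KDM1A guide 3 did too, and the CDKN1A libraries overlapped control.

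EGR1 fell in SPP1 knockdown to 66.3% of control (log2 -0.59 ± 0.14, adjusted p 0.021), and was at 105% in CDKN1A knockdown (log2 0.07 ± 0.15) and 76.0% in KDM1A knockdown (log2 -0.40 ± 0.16), neither of which passed. The SPP1 call held in 16 of the 18 fits that left out 1 library and ended without control guide 1 replicate 1 (adjusted p 0.0507) or replicate 2 (0.107), and without both it was -0.46 (adjusted p 0.274). The 2 KDM1A guides differed, with guide 3 at 62.4% of guide 2 (log2 -0.68 ± 0.16, adjusted p 0.0192), the only one of the 9 genes called between guides of a target, where 6.15% of all genes were called for KDM1A. CDKN1A guide 2 against guide 1 called none of the 9 (1.28% of all genes), and SPP1 guide 1 against guides 2 and 3 none (3.90% of all genes), with JUND closest (log2 -0.45 ± 0.12, adjusted p 0.058). At an unadjusted p under 0.05 these 2 guide comparisons held JUNB for CDKN1A, and JUND and FOSL2 for SPP1, and DESeq2 called 0 and 1.

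IER2 (chromosome 19, 13150415 to 13154908) was lowest in the SPP1 knockdown. Its libraries ranged over 76.3 to 116.5 CPM with a median of 106 CPM, against 137 and 116 CPM with control guide 2 and 138 and 120 CPM with control guide 1, so that 5 of 6 lay below all controls. The log2 fold change of -0.30 ± 0.10 did not pass (adjusted p 0.0931). CDKN1A knockdown gave 124 to 142.5 CPM and KDM1A knockdown 159 and 159 CPM with guide 2 and 120 and 130 CPM with guide 3, all overlapping control except KDM1A guide 2. IER2 shares 946 exon bases with AC011446.2 on the opposite strand, which cannot be told apart without a stated strand setting.

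Of the 9 genes, 2 were called in CDKN1A knockdown against control (2.00% of all genes called), 2 in KDM1A knockdown (9.05%) and 4 in SPP1 knockdown (5.46%), and every call was a fall. The median log2 fold change of the 9 was -0.05, -0.13 and -0.30 in the same order, against 0.00, -0.01 and 0.00 over all genes. In the SPP1 knockdown 9 of 9 values were negative, against 6 of 9 in each other knockdown. The 3 comparisons share their 4 control libraries, so falls common to them are not independent.

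Against control guide 1 alone, 3 of the 9 genes fell in CDKN1A knockdown (8.31% of all genes called), 5 in KDM1A knockdown (16.8%) and 5 in SPP1 knockdown (12.6%). FOS, FOSB and JUNB were called in each, with JUN and EGR1 added in KDM1A and JUND and EGR1 in SPP1 knockdown. Against control guide 2 alone, none was called in CDKN1A knockdown (4.24% of all genes called), 1 in KDM1A knockdown (7.65%) and 1 in SPP1 knockdown (5.65%). The KDM1A call was FOS (log2 -0.48 ± 0.12, adjusted p 0.0225) and the SPP1 call EGR1 (log2 -0.45 ± 0.13, adjusted p 0.0498). FOSB in KDM1A knockdown was at 48.1% of control guide 2 without passing (log2 -1.06 ± 0.36, adjusted p 0.0976). FOS and JUND passed an unadjusted p of 0.05 in CDKN1A knockdown against control guide 2 (log2 -0.335 ± 0.12 and 0.275 ± 0.12), where DESeq2 called 0 of the 9. Values of opposite sign against the 2 control guides were found for FOSL2, JUNB, JUND and EGR1 in CDKN1A, for FOSL2, JUNB and JUND in KDM1A, and for FOS, FOSL2, JUN and JUND in SPP1 knockdown, as with FOS in SPP1 knockdown (-1.65 against guide 1 and 0.18 against guide 2).

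**Figure D3:**
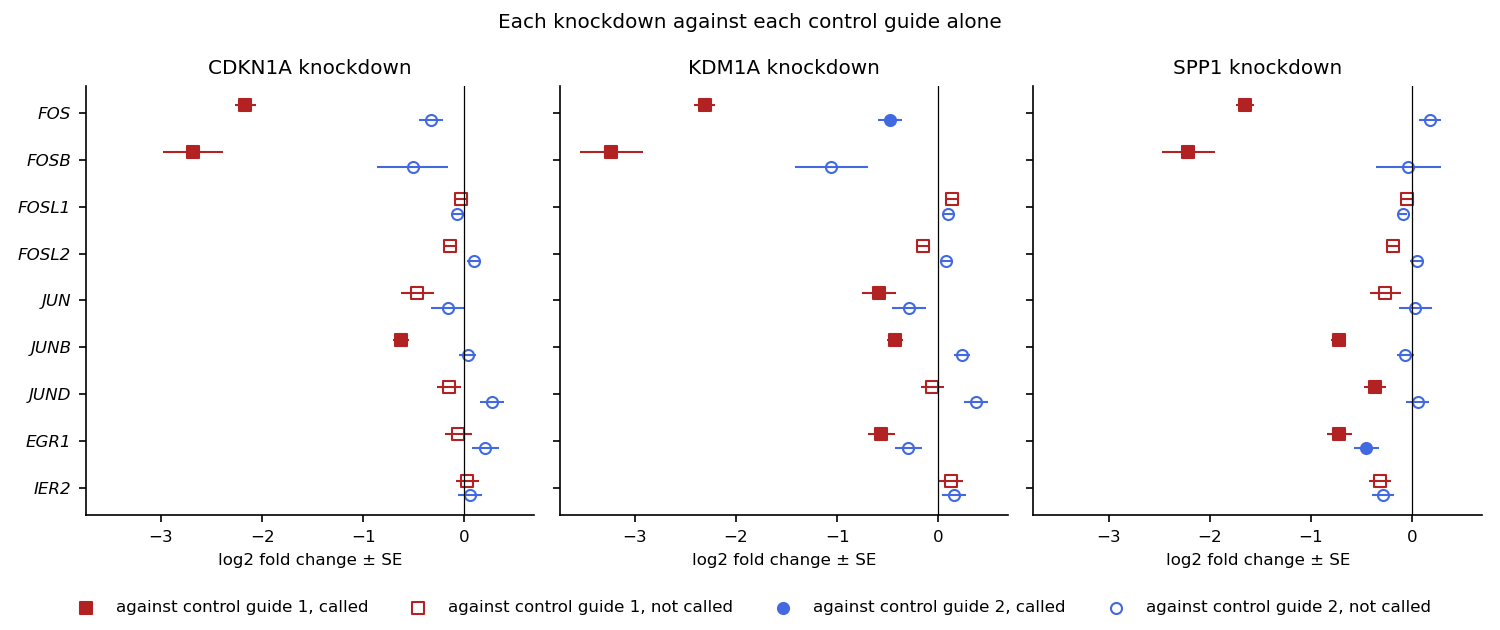
Log2 fold change ± SE of the 9 genes in each knockdown against control guide 1 alone (squares) and control guide 2 alone (circles), filled where the gene was called. FOS and FOSB lie between -1.65 and -3.23 against control guide 1, and against control guide 2 FOS is called in KDM1A knockdown and EGR1 in SPP1 knockdown.

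The knockdowns were also set against each other, in the same fit, where control libraries enter only the scaling and the estimate of spread. EGR1 was higher in CDKN1A knockdown than in KDM1A knockdown (log2 0.47 ± 0.16, adjusted p 0.0499), the 1 gene of the 9 called there (14.9% of all genes called). CDKN1A against SPP1 knockdown called EGR1 (log2 0.66 ± 0.14, adjusted p 0.00515) and IER2 (log2 0.34 ± 0.10, adjusted p 0.0327), both higher in CDKN1A knockdown (12.0% of all genes called). KDM1A against SPP1 knockdown called IER2 (log2 0.45 ± 0.10, adjusted p 0.00595) and FOSL1 (log2 0.19 ± 0.05, adjusted p 0.0247), both higher in KDM1A knockdown (11.9% of all genes called).
FOS (log2 -0.655 ± 0.31) and FOSB (log2 -1.01 ± 0.47) were lower in KDM1A than in SPP1 knockdown in the fit without passing, although each KDM1A and each CDKN1A library had less FOS than each SPP1 library. With the 2 groups alone in the fit, FOS was called in both KDM1A and CDKN1A against SPP1 knockdown. The EGR1 call in CDKN1A against KDM1A knockdown held in 5 of the 18 fits that left out 1 library, those without KDM1A guide 2 replicate 1 or 2, SPP1 guide 3 replicate 1 or 2, or control guide 1 replicate 2. In CDKN1A against SPP1 knockdown EGR1 was called in every such fit, and IER2 in all but those without CDKN1A guide 2 replicate 1 or 2. In KDM1A against SPP1 knockdown IER2 was called in every such fit, and FOSL1 in all but those without KDM1A guide 2 replicate 1 or 2 or SPP1 guide 2 replicate 2.

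Among the other immediate early genes, the calls were nearly all falls. Of 34 listed, 29 were tested. Against all control libraries 2.00% of all genes were called in CDKN1A, 9.05% in KDM1A and 5.46% in SPP1 knockdown. In CDKN1A knockdown 0 rose and 2 fell, CCN2, a secreted matricellular protein (log2 -0.635 ± 0.13, adjusted p 0.0165), and KLF2, a zinc finger factor (log2 -0.38 ± 0.09, adjusted p 0.0354). In KDM1A knockdown 0 rose and 5 fell, among them ATF3, a stress-induced bZIP factor, PTGS2, PPP1R15A, a phosphatase subunit of the stress response, and BTG2, an antiproliferative p53 target. ATF3 had 2.83 to 4.36 CPM in KDM1A knockdown against 9.79 to 15.1 CPM in control libraries (log2 -1.74 ± 0.24, adjusted p 0.000113). In SPP1 knockdown 1 rose and 10 fell, with KLF2, ATF3, RHOB and CCN2 of smallest p. KLF2 had 68.8 to 80.9 CPM in SPP1 knockdown against 111 to 122 CPM in control libraries (log2 -0.64 ± 0.08, adjusted p 0.000591). The list's median log2 fold change was -0.03, -0.16 and -0.17 in CDKN1A, KDM1A and SPP1 knockdown, against 0.00, -0.01 and 0.00 over all genes.

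Against control guide 2 alone, 5, 5 and 8 of the 29 fell in CDKN1A, KDM1A and SPP1 knockdown (4.24%, 7.65% and 5.65% of all genes called). In CDKN1A knockdown these included DUSP1 and GADD45B, which were not called against all control libraries. On the mean of a target's guides, CCN2 fell against control guide 2 in each (log2 -0.50, -0.30 and -0.50), and ATF3 in KDM1A knockdown (log2 -1.44 ± 0.23, adjusted p 0.000987). The KDM1A guides differed in CCN2, with 1169 and 1191 CPM for guide 2 and 848 and 840 CPM for guide 3. Control guide 2 had 1224 and 1230 CPM. KLF2 fell against control guide 2 in CDKN1A (log2 -0.41) and SPP1 knockdown (log2 -0.68). Between the control guides 0 rose and 3 fell with guide 2, where 1.34% of all genes were called. These were PTGS2, MCL1 (log2 -0.28 ± 0.05, adjusted p 0.0203) and CCN2 (log2 -0.27 ± 0.05, adjusted p 0.0222).

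**Figure D4:**
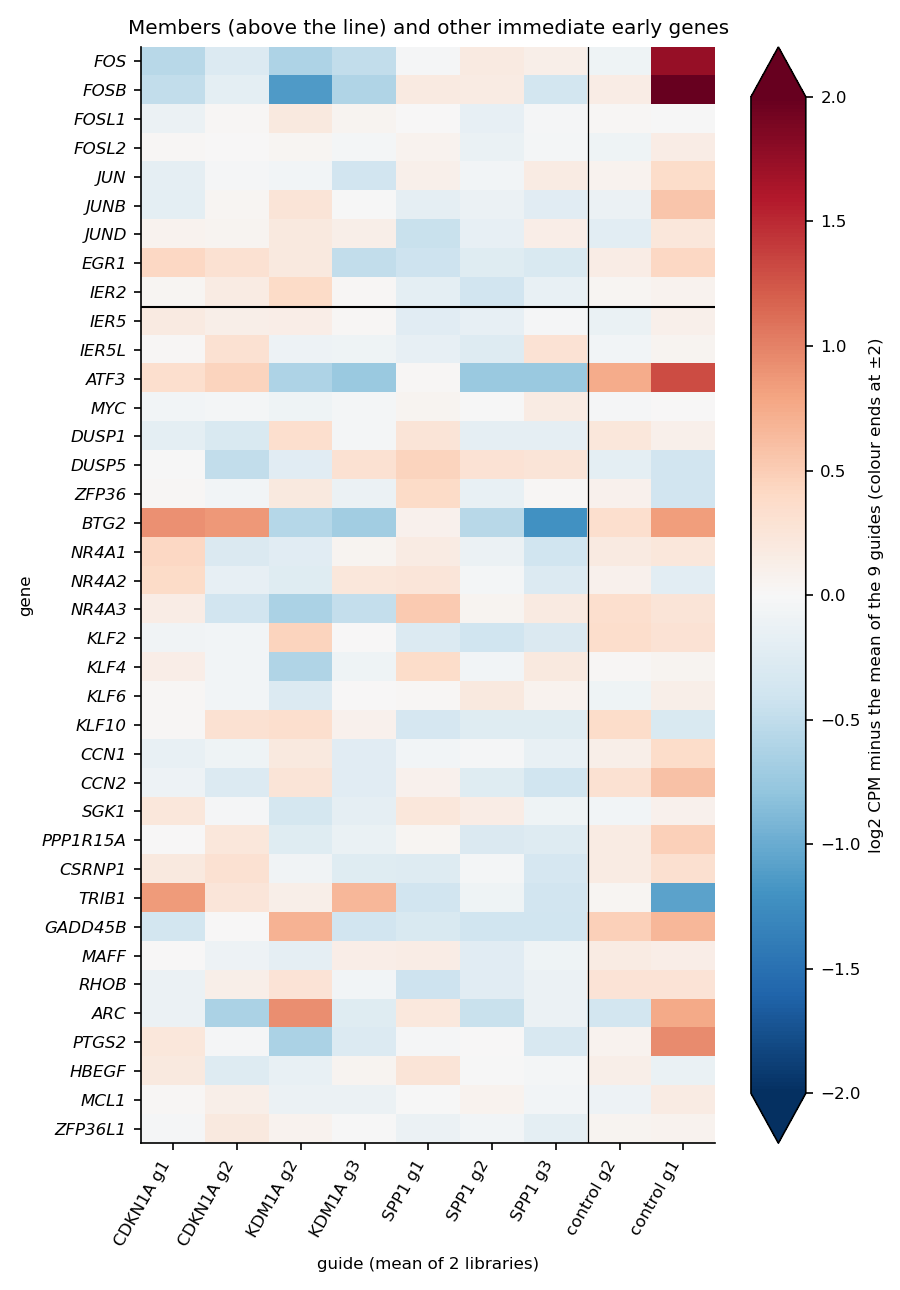
Guide means of log2 CPM minus the mean of the 9 guides, for the 9 genes (above the line) and 29 other immediate early genes, with knockdown guides left of the control guides. FOS (1.74) and FOSB (2.30) stand out in control guide 1, and ATF3 is high in both control guides (0.74 in guide 2 and 1.30 in guide 1).

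Of 19 upstream factors and kinases, which act above AP-1, 0 rose and 0 fell in CDKN1A knockdown (2.00% of all genes called), 0 and 4 in KDM1A knockdown (9.05%) and 0 and 2 in SPP1 knockdown (5.46%). Against control guide 1 alone 7 fell in KDM1A knockdown (16.8% of all genes called), and against control guide 2 alone 1 (7.65%), ELK3, an SRF partner. Against all control libraries, ELK3 and the JNK kinase gene MAPK8 fell in both KDM1A and SPP1 knockdown. The ERK-activated kinases RPS6KA3 and RPS6KA1 fell in KDM1A knockdown. RPS6KA1 was low, with 0.94 to 1.26 CPM in KDM1A knockdown and 1.32 to 2.63 CPM in control libraries. SRF was lower against control guide 1 in each knockdown (log2 -0.46, -0.36 and -0.28 in CDKN1A, KDM1A and SPP1 knockdown). Of 9 ERK feedback genes, 0 were called in CDKN1A knockdown against all control libraries (2.00% of all genes called). In that knockdown 3 rose against control guide 1 alone (8.31%) and 2 against control guide 2 alone (4.24%), PHLDA1 among both (log2 0.24 and 0.26). In KDM1A knockdown 4 rose and 1, the phosphatase DUSP4, fell against control guide 1 alone (16.8%), and 1 rose against control guide 2 alone (7.65%). In SPP1 knockdown 4 and 3 rose in the same order (12.6% and 5.65%). Against all control libraries PHLDA1 rose in KDM1A knockdown (log2 0.40 ± 0.10, adjusted p 0.018, 9.05% of all genes called). It had 175 and 178 CPM with KDM1A guide 2 and 251 and 248 CPM with guide 3, against 159 to 166 CPM in control libraries. In SPP1 knockdown PHLDA1, DUSP4 and SPRY2 rose (log2 0.40 to 0.50, 5.46% of all genes called).

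Of 16 other bZIP factors tested, which can pair with AP-1 proteins, 1 rose and 4 fell in KDM1A knockdown, where 9.05% of all genes were called. ATF6 rose (log2 0.23 ± 0.07, adjusted p 0.0377), and among the falls were CREB5 (log2 -0.68 ± 0.12, adjusted p 0.00152), ATF4 (log2 -0.35 ± 0.07, adjusted p 0.00457) and JDP2, a repressor that pairs with JUN (log2 -0.86 ± 0.20, adjusted p 0.0096). None was called in CDKN1A knockdown (2.00% of all genes), and ATF4 alone fell in SPP1 knockdown (5.46% of all genes) (log2 -0.26 ± 0.07, adjusted p 0.0302). Against control guide 2 alone none was called in CDKN1A (4.24% of all genes) or SPP1 knockdown (5.65%). In KDM1A knockdown 3 fell there (7.65%), CREB5, ATF4 and JDP2. ATF4 had 259 to 326 CPM in SPP1 knockdown, against 388 and 364 CPM with control guide 1 and 319 and 327 CPM with control guide 2. ATF2, a JUN partner, was lower with control guide 2 than with guide 1 (log2 -0.33 ± 0.065, adjusted p 0.0203).

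Known AP-1 target genes moved in both directions. Of 18 tested, 0 rose and 2 fell in CDKN1A knockdown (2.00% of all genes called), 2 rose and 3 fell in KDM1A knockdown (9.05%), and 2 rose and 4 fell in SPP1 knockdown (5.46%). Against control guide 1 alone 3 rose and 5 fell in CDKN1A (8.31%), 5 and 8 in KDM1A (16.8%) and 2 and 4 in SPP1 knockdown (12.6%). Against control guide 2 alone these were 3 and 3 (4.24%), 2 and 6 (7.65%) and 2 and 5 (5.65%). PLAU, the protease urokinase, rose in KDM1A (150 ± 1.83 CPM, n = 4) and SPP1 knockdown (108 ± 19.4 CPM, n = 6), against 78.2 ± 3.30 CPM in control libraries (n = 4). LIF rose in KDM1A knockdown (log2 1.075 ± 0.27, adjusted p 0.0147). IL11 fell in CDKN1A (log2 -0.65 ± 0.13, adjusted p 0.014) and KDM1A knockdown (log2 -0.815 ± 0.13, adjusted p 0.000376). In SPP1 knockdown MT2A (log2 -0.33 ± 0.06, adjusted p 0.00666) and HMOX1, a heme-degrading enzyme, fell (log2 -1.10 ± 0.25, adjusted p 0.0175). Between the control guides, MMP1, the interstitial collagenase, was higher with guide 2 (log2 0.23 ± 0.05, adjusted p 0.0277), and HMOX1 was lower. MMP1 had 8447 to 10990 CPM in CDKN1A and 8986 to 11620 CPM in SPP1 knockdown, against 5607 to 6994 CPM in control libraries. It rose against control guides 1 and 2 alone in CDKN1A (log2 0.73 and 0.50) and SPP1 knockdown (log2 0.84 and 0.61). Against all control libraries it was not called in CDKN1A knockdown. KDM1A guide 2 gave 5984 and 6036 CPM and guide 3 11390 and 11980 CPM.

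The genes whose log2 CPM followed a member most closely were sought among 11486 tested genes outside the 9. The FOS pattern over the 18 libraries was nearest to MSANTD7, RXRA, KCNMA1, MED26 and SRF, whose Pearson r over the 16 libraries without control guide 1 was 0.58, 0.76, 0.56, 0.45 and 0.52. For EGR1 they were VANGL1 (r 0.90), SMC1A, FOXN3, FZD1 and ARHGAP11A (r 0.86) over 18 libraries. For FOSL1 they were SPRING1 (r 0.87), PPM1H, CLSTN1, NFIC and DAG1 (r 0.85). The libraries share guides and targets, and the highest r of so many genes is high by selection, so these are descriptions. Among the 9, EGR1 with FOS had r -0.42 and FOSL1 with IER2 0.70 over the 16 libraries.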

How the data were processed

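Per the submitters' processing notes, the authors ran kallisto on GRCh38 (hg38). They deposited 1 table per library with estimated counts, TPM and effective length per Ensembl transcript. Its version, its strand setting and the release of its transcriptome were not stated in the labels or notes. Of 188753 transcripts, 169797 (90.0%) were matched to 35579 genes with GENCODE 29, and the rest held 2.49 to 2.62% of counts. The deposited estimated counts were summed per gene and rounded. The deposited TPM values were summed per gene without a test, and the effective length entered 1 alternative.

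Genes kept by filterByExpr (count minimum 10) were scaled by TMM and tested with edgeR 4.0.16 in R 4.3.3. The fit had 1 coefficient per group for comparisons of targets, or 1 per guide for those of control guides or of guides of a target, over all 18 libraries. SE is the absolute log2 fold change divided by the square root of F. The common dispersion was 0.00869 (biological coefficient of variation 9.32%) by group and 0.00478 (6.92%) by guide. The fit by group thus treats guides of a target as replicates although they differ more than the libraries of a guide. Log2 CPM carry a prior count of 2. DESeq2 1.42.0 was an alternative. The script was tested on simulated data.

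The replicate numbers did not pair libraries: over 36 pairs of guides, the correlation of same-numbered deviations was -0.12 to 0.07. The 9 genes and all lists were chosen with earlier results of these data known. Of each list, up to 4 called genes of smallest p were named, or else the gene of smallest p, and 1 AP-1 target gene is not reported here. Genes like FOS, EGR1 and FOSL1 were the 5 of highest Pearson r among tested genes averaging 1 or more in log2 CPM. RefSeq promoters (GRCh38.p14) were matched by symbol.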

Additional observations from a re-analysis of the deposited data

Results flagged for a closer look

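EGR1 differed between knockdowns whose fold changes share the control libraries. It was higher in CDKN1A than in KDM1A knockdown (log2 difference 0.47) and higher in CDKN1A than in SPP1 knockdown (log2 0.66), and within the KDM1A knockdown it was lower with guide 3 than with guide 2 (log2 -0.68). IER2 was higher in CDKN1A than in SPP1 knockdown (log2 0.34) and higher in KDM1A than in SPP1 knockdown (log2 0.45). FOSL1 was higher in KDM1A than in SPP1 knockdown (log2 0.19). Each of these differences passed edgeR's quasi-likelihood test of the difference itself.

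Single libraries stood apart from the rest of their group in 3 of the 36 groups tested, where chance alone flags about 1 in 20. EGR1 had 105.8 CPM in CDKN1A guide 1 replicate 1, above the other 3 libraries of that knockdown. FOSL2 had 241.6 CPM in KDM1A guide 2 replicate 2, above its group. IER2 had 76.33 CPM in SPP1 guide 2 replicate 1, below the other 5 libraries.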

How the results depend on the processing

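The counts of the 9 genes called were 2 in CDKN1A, 2 in KDM1A and 4 in SPP1 knockdown against control. All 3 went to 0 in the fit by group without control guide 1, where FOS, FOSB, JUNB and EGR1 kept no call. The fit with 1 coefficient per guide keeps those libraries, and there FOS in KDM1A and EGR1 in SPP1 knockdown were called against control guide 2 alone. The 3 counts also went to 0 with the 2 libraries of a guide summed, as did the counts of CDKN1A against KDM1A (1 as reported), CDKN1A against SPP1 (2) and KDM1A against SPP1 knockdown (2). In that fit with fewer samples, the KDM1A values of FOS and FOSB were -1.66 (adjusted p 0.101) and -2.47 (adjusted p 0.0705). With the transcript length offset the counts were 1 in CDKN1A (FOS), 1 in SPP1 (EGR1), 0 for CDKN1A against KDM1A, 1 for CDKN1A against SPP1, 1 for KDM1A against SPP1, and 0 for KDM1A or SPP1 against control guide 2 alone and for the KDM1A guides. With the 2 groups alone in the fit they were 1 in CDKN1A (FOSB), 1 in SPP1 (EGR1), 0 for CDKN1A against KDM1A, 3 in KDM1A (FOS, FOSB, JUN), 3 for CDKN1A against SPP1 (FOS, EGR1, IER2) and 3 for KDM1A against SPP1 (FOS, JUNB, IER2). With 1 coefficient per guide, KDM1A had 4 (JUN and EGR1 added), CDKN1A 3 (JUNB added, adjusted p 0.013) and SPP1 5 (IER2 added, adjusted p 0.034). With the replicate number as a block, SPP1 had 2 (FOSB and EGR1), CDKN1A against KDM1A 0 and SPP1 against control guide 2 alone 0, and the numbers share only a name. DESeq2 called 2 for CDKN1A against KDM1A, 0 for KDM1A against control guide 2 alone and 1 between SPP1 guides. Without the filter on low counts the counts were 6 between control guides, 1, 5 and 2 for CDKN1A, KDM1A and SPP1 against control guide 2 alone, 8 for SPP1 against control guide 1 alone, 3 between KDM1A guides and 1 between SPP1 guides. Without each library in turn the counts ranged over 0 to 2 in CDKN1A, 2 to 3 in KDM1A, 0 to 4 in SPP1, 0 to 2 for CDKN1A against KDM1A, 1 to 2 for CDKN1A against SPP1, 1 to 3 for KDM1A against SPP1 and 1 to 3 between control guides. Calls over all genes moved too. In the comparisons listed they fell without control guide 1, with summed libraries, with the length offset and with the replicate block. They rose with 1 coefficient per guide and without the filter, each time as the member counts did. With the 2 groups alone they moved against the member counts, except in SPP1 knockdown against control, where both fell. With DESeq2 they moved as the member counts did, except between SPP1 guides, where they fell. The cause of these changes was not tested.

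Directions that turned were of values not called, except FOS in SPP1 knockdown. Without control guide 1, log2 fold changes were 0.09 for FOSL2 and 0.03 for JUNB in CDKN1A, 0.08 for FOSL2 and 0.24 for JUNB in KDM1A, and 0.18 for FOS, 0.04 for FOSL2, 0.03 for JUN and 0.07 for JUND in SPP1 knockdown. Without control guide 2 they were -0.14 for JUND and -0.05 for EGR1 in CDKN1A and -0.05 for JUND in KDM1A knockdown. FOSL2 in KDM1A was 0.03 with the length offset, and between -0.08 and 0.01 without each library in turn, as in CDKN1A, where it was between -0.07 and 0.03 and JUND between -0.02 and 0.14. IER2 between control guides was between -0.14 and 0.10. FOSB had the fewest counts, 29.4 to 385.4 in a library, and its SE of 0.39 to 0.48 limits what could be seen.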
